A study of Branchiostoma lanceolatum with 8 samples.

Results

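Late regions beside early responding loci are stretches of chromatin of the amphioxus Branchiostoma lanceolatum that the authors listed as differing between Activin-treated and control ectodermal explants at 19 hours post fertilization (hpf), that overlapped no region listed at 11 hpf, and that lay close to one. They were chosen by position: a 19 hpf region was a member when it shared no base pair with an 11 hpf region and the nearest 11 hpf region on its scaffold was at most 10 kb away, edge to edge. This gave 1161 members on 294 scaffolds, 16.0% of the 7252 regions listed at 19 hpf. Of the other 19 hpf regions, 1608 overlapped an 11 hpf region, 3912 lay farther than 10 kb from any on their scaffold, and 571 were on scaffolds with none. The study used ATAC-seq, in which a transposase cuts and tags accessible DNA, on 4 groups of 2 libraries. These were control explants at 11 hpf, explants given human recombinant Activin at 50 ng per mL at 11 hpf, and the same pair of groups at 19 hpf. No genotype or further agent is named in the labels, and they leave unsaid whether the 2 libraries per group were made from different spawnings or from the same embryos.

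Activin is a secreted protein of the TGF-beta family. It binds activin receptors at the cell surface, and these activate the transcription factors SMAD2 and SMAD3, which enter the nucleus with SMAD4 and bind regulatory DNA together with partner factors. Nodal, which patterns the axes of chordate embryos, uses the same route. Amphioxus ectoderm forms epidermis if left alone and can be turned towards neural tissue by Activin or Nodal. Genes active in development often have several enhancers spread over kilobases around them, and these need not become accessible at the same time.

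The authors' deposited lists give each region a scaffold, a start, an end, a number and a signed log2 fold change, read here as base 2. The sources do not say whether Activin or control was the numerator, so the signs are given as deposited and are not translated into gain or loss of accessibility. Single libraries, reads and p-values are not part of the lists, so the depth is unknown and no value has an error from replicates. Membership used both lists, so signs, sizes and counts below are descriptions with no test. The percentages carry exact 95% Clopper-Pearson intervals where stated. Those cover counting error only and treat neighbouring regions as independent, which they are not, since the 1161 members had only 887 different nearest 11 hpf regions. Explants are tissue pieces, and a change in a share of their cells and a change in accessibility per cell cannot be told apart. Regions were not paired with genes or sequence, so the ectodermal identity of the explants was not checked against marker genes. Starts are 1-based, and scaffold names are the authors'.

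Members were mostly negative, as was the list they came from. Of the 1161, 1051 were negative and 110 positive, so that 9.47% were positive (interval 7.85 to 11.3%). In the whole 19 hpf list 9.39% were positive, among regions overlapping an 11 hpf region 10.3%, and among those farther than 10 kb 7.80%. The share was higher, at 17.5% (100 of 571), among regions on scaffolds with no 11 hpf region. Against the highest region number in the 19 hpf list, the authors listed at most 8.31% of numbered regions in either direction, 7.53% as negative and 0.78% as positive. At 11 hpf the corresponding shares were at most 3.48%, 2.38% negative and 1.11% positive. Both contrasts chose the members, and nothing is read from these background shares.

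The sign of a late region went with the sign of the early region beside it. Of 892 members whose nearest 11 hpf region was negative, 860 were negative and 32 positive, a positive share of 3.59% (interval 2.47 to 5.03%). Of 269 members whose nearest 11 hpf region was positive, 78 were positive and 191 negative, a positive share of 29.0% (23.6 to 34.8%). Late regions beside positive early ones were thus positive far more often than the list as a whole, and yet most of them were negative. Among the 19 hpf regions farther than 10 kb, the positive shares were 6.24% where the nearest 11 hpf region was negative and 11.4% where it was positive. Regions that overlapped an 11 hpf region stood at the other end, with 0 of 1421 positive over negative regions (interval 0 to 0.259%) and 166 of 187 (88.8%) positive over positive regions. Over all members, 938 of 1161 had the sign of their nearest 11 hpf region, or 80.8% (78.4 to 83.0%). With so few positive regions at 19 hpf, that figure depends on the make-up of both lists, and the shares split by the sign of the early region do not depend on how many early regions had each sign.

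**Figure D1:**
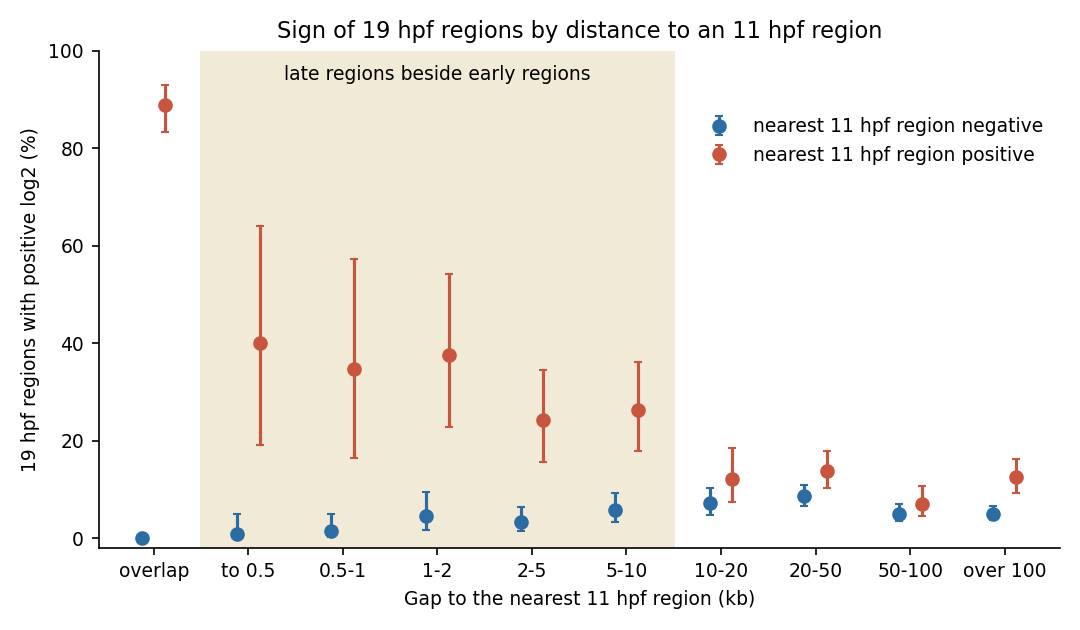
Percentage of 19 hpf regions with a positive log2 (vertical axis) by the gap to their nearest 11 hpf region in kb (horizontal axis), for nearest regions that were negative (blue) or positive (red) at 11 hpf. Bars are exact 95% Clopper-Pearson intervals, and the shaded bins hold the 1161 late regions beside early ones, where the red points lie between 24.1% and 40.0% and the blue points between 0.917% and 5.75%.

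Many members lay close to their early region. The median gap was 2919 bp (quartiles 981 to 5874 bp), the smallest 29 bp and the largest 9989 bp. Within 500 bp lay 129 members, a further 166 lay up to 1000 bp, 175 up to 2000 bp, 331 up to 5000 bp and 360 up to 10 kb, so the first 1000 bp held nearly as many as the last 5000 bp.

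Sign agreement was highest at these short gaps. It was 89.9% up to 500 bp, 89.8% from there to 1000 bp, 82.3% to 2000 bp, 77.6% to 5000 bp and 75.6% to 10 kb. Between 10 and 20 kb, outside the membership rule, it was 69.9%. The mix of neighbours changed with the gap too. Negative regions were the nearest for 109 of 129 members within 500 bp and for 261 of 360 between 5 and 10 kb. The pooled agreement therefore depends in part on that mix. In every bin up to 10 kb, positive early regions had the higher share of positive late regions beside them. Beside positive early regions the positive share was 40.0% (8 of 20) within 500 bp, 37.5% (15 of 40) between 1000 and 2000 bp and 26.3% (26 of 99) between 5 and 10 kb, with intervals that overlapped one another. Beyond 10 kb it was 12.1% up to 20 kb and between 7.09 and 13.7% in the bins farther out. Beside negative early regions it was 0.917% (1 of 109) within 500 bp, 5.75% (15 of 261) between 5 and 10 kb and 7.18% between 10 and 20 kb.

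**Figure D2:**
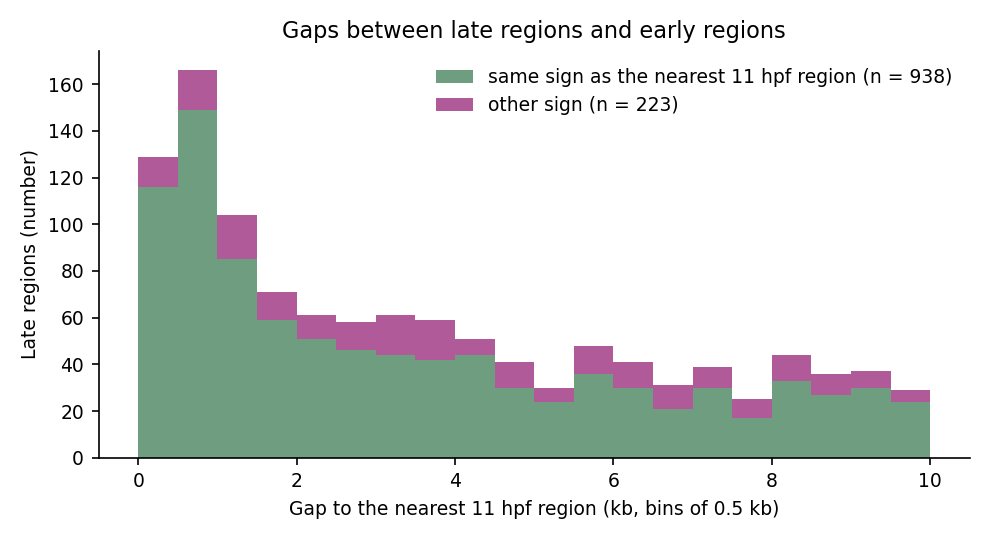
Number of late regions (vertical axis) by gap to the nearest 11 hpf region in kb (horizontal axis, bins of 0.5 kb), stacked by whether the late region had the same sign as that region (green, 938) or the other sign (purple, 223). The bins below 1.5 kb are the fullest, and the other sign takes a smaller part of them than of the bins farther out. Neighbours of both signs are pooled.

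Membership ends at a gap of 10 kb, and regions on either side of that limit were similar in size. The 5 members just inside it had gaps of 9956 to 9989 bp. Their log2 values were -1.87 on Sc0000011, -1.67 on Sc0000277, 2.05 on Sc0000115, 3.34 on Sc0000043 and -3.45 on Sc0000019, and only the one on Sc0000043 differed in sign from its neighbour. The 5 regions just outside had gaps of 10014 to 10105 bp and log2 values of -2.60, 2.34, -1.86, -2.20 and 2.18. Of these the first (Sc0000004) and the second (Sc0000021) differed in sign from theirs. In the last 1000 bp inside the limit, 54 of 66 members (81.8%, interval 70.4 to 90.2%) had their neighbour's sign, and in the first 1000 bp outside it 42 of 63 regions did (66.7%, 53.7 to 78.0%). Neither share was split by the sign of the neighbour, and the intervals overlap.

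The early neighbours themselves were of 2 kinds, those listed again at 19 hpf, called sustained here, and those listed at 11 hpf only. Of the 1161 members, 635 (54.7%) had a sustained nearest neighbour and 526 (45.3%) had one listed at 11 hpf only. Agreement in sign was 92.1% beside sustained regions and 67.1% beside the others. Their make-up differed, since 62 of the 635 sustained neighbours were positive, against 207 of the 526 others. Beside negative neighbours the values were close, with 96.9% (555 of 573) negative members beside sustained and 95.6% (305 of 319) beside early-only regions. Beside positive neighbours they lay apart, with 48.4% positive members (30 of 62, interval 35.5 to 61.4%) beside sustained regions and 23.2% (48 of 207, 17.6 to 29.5%) beside early-only regions. The largest group of members with the other sign was therefore the 159 negative late regions beside positive regions listed at 11 hpf only. At gaps up to 1000 bp, 24 of the 37 members beside a positive early-only region were negative and 13 (35.1%, interval 20.2 to 52.5%) positive.

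From the side of the 11 hpf list, 1288 of 3897 early regions (33.1%) had at least 1 member within 10 kb. The share was 42.2% (613 of 1452) for sustained negative regions, 31.2% (377 of 1208) for negative regions listed at 11 hpf only, 30.7% (59 of 192) for sustained positive regions and 22.9% (239 of 1045) for positive regions listed at 11 hpf only. Sustained regions thus had late regions beside them more often than early-only regions of the same sign in this count. For negative regions the intervals lay apart (39.7 to 44.8% and 28.6 to 33.9%). For positive regions they overlapped (24.3 to 37.8% and 20.4 to 25.5%). As nearest neighbour, 685 of the 887 early regions had 1 member, 150 had 2, 38 had 3, and 1 had 7.

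**Figure D3:**
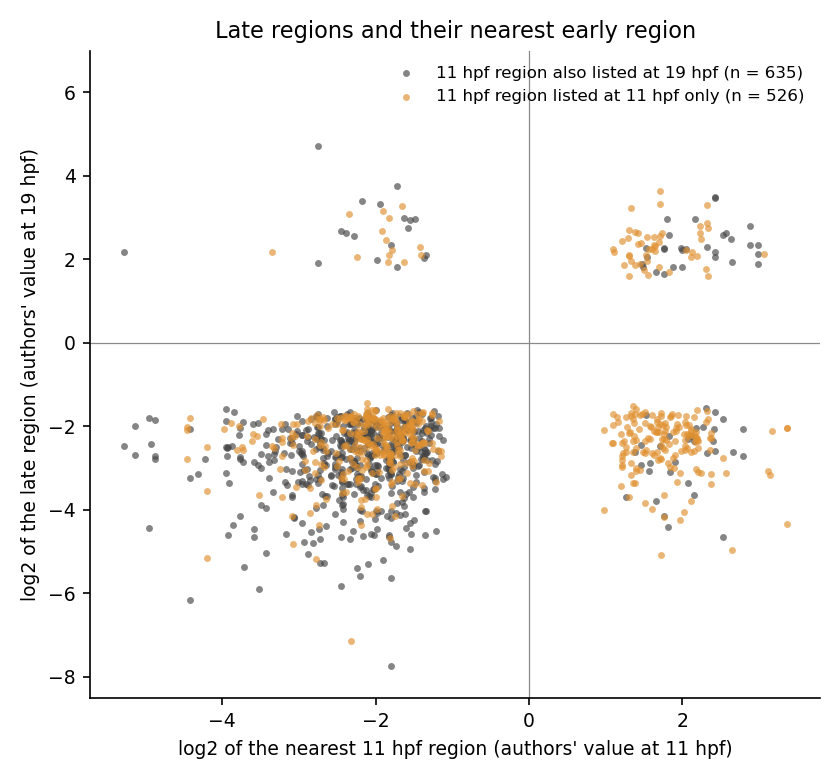
The authors' log2 of each late region at 19 hpf (vertical axis) against that of its nearest 11 hpf region (horizontal axis), with 1 point for each of the 1161 members, dark where the 11 hpf region was listed again at 19 hpf (635) and orange where it was not (526). The lower left quadrant holds 860 points and the lower right 191, of which 159 are orange, and the empty bands around 0 are values the lists do not contain.

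In size the members lay between the overlapping and the farther regions. Negative members had a median absolute log2 of 2.47, which is 5.55-fold, with log2 quartiles of 2.06 and 3.06. Negative regions over an 11 hpf region had 2.59 and those farther away 2.35. Positive members had a median of 2.28, or 4.85-fold, with log2 quartiles of 2.05 and 2.65, against 2.21 over an 11 hpf region and 2.37 farther away. All of these medians lie within each other's quartiles. Among the members, the 860 negative ones beside negative regions had a median absolute log2 of 2.50, the 191 negative ones beside positive regions 2.34, the 78 positive ones beside positive regions 2.26 and the 32 positive ones beside negative regions 2.51. Median absolute log2 hardly moved with the gap, at 2.46 within 500 bp, 2.60 from 500 to 1000 bp and 2.40 from 5 to 10 kb.

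The size of a late region said little about the size of its early neighbour. Across the 860 pairs that were negative at both times, Spearman's rho of the absolute log2 values was 0.10, and across the 78 positive pairs it was 0.17. These are correlations over regions that share the same libraries and in part the same neighbours, given as descriptions. The late region had the larger absolute value in 837 of 1161 pairs (72.1%), with the smallest absolute value in each list at 1.44 at 19 hpf and 0.98 at 11 hpf. By quartile of the early region's absolute log2, the positive share beside positive regions was 27.5, 32.4, 19.4 and 39.2% from the smallest to the largest quartile. Beside negative regions it was 4.88, 5.33, 2.58 and 1.75%. Neither series was a steady rise or fall. In the largest positive quartile 51.0% of the neighbours were sustained, against 21.1% and 19.4% in the 2 middle ones.

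Late regions were narrow, with a median width of 449 bp (quartiles 296 to 684 bp). The medians were 647 bp for regions over an 11 hpf region and 478 bp for those farther away. Width enters the overlap rule, because a wide region close to an early one is more likely to touch it, so this order is given as a value and not as a finding. Members within 500 bp had a median width of 414 bp and those at 5 to 10 kb 467.5 bp. Narrow members had larger fold changes (Spearman's rho between width and absolute log2 of -0.30 over 1161 members).

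**Figure D4:**
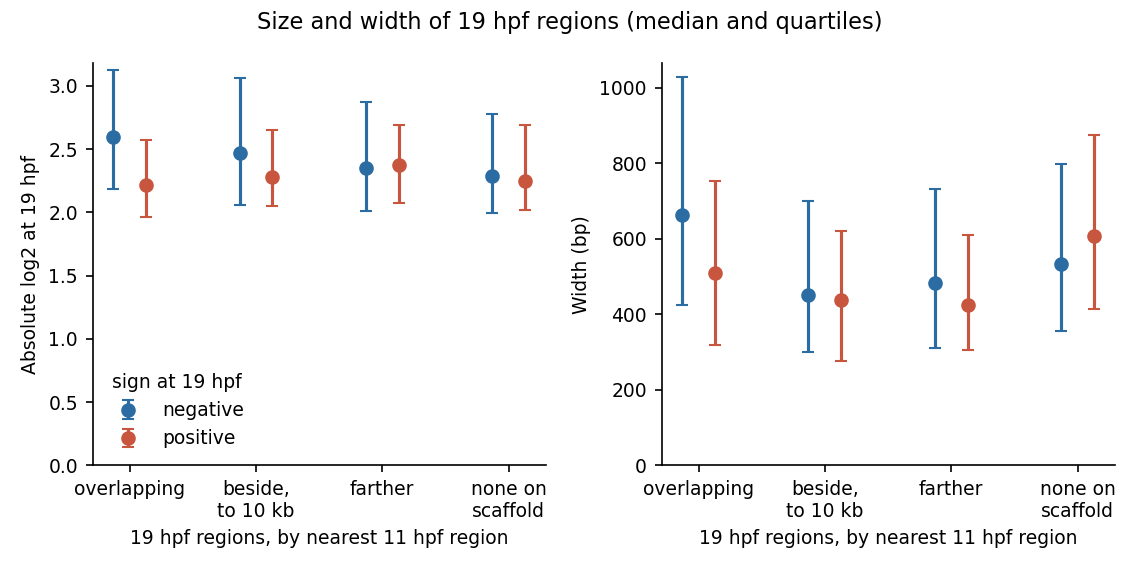
Median absolute log2 (left) and median width in bp (right) of 19 hpf regions by their relation to 11 hpf regions (horizontal axis), for negative (blue) and positive (red) regions, with bars from the lower to the upper quartile. Negative members sit at 2.47 between 2.59 for overlapping and 2.35 for farther regions, and their quartiles overlap.

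The members with the largest fold changes were negative and beside negative regions. On Sc0000010 a region of 234 bp from 2185872 to 2186105 had -7.74, and its neighbour 426 bp away had -1.79 at 11 hpf and was sustained. On Sc0001479 (2090 to 2264) a region of 175 bp had -7.14, 900 bp from an early-only region of -2.32. The next were -6.16 on Sc0000010 (4441824 to 4442325), beside a sustained region of -4.42, -5.89 on Sc0000002 (4833564 to 4834018), beside one of -3.52, and -5.81 on xpSc0039676 (189782 to 189966), beside one of -2.46. All 5 thus had the sign of their neighbour. Their larger absolute value follows mostly from their choice by size and is not read as a finding. Positive values reached less far, and their 2 largest lay beside negative sustained regions. They were 4.72 on Sc0000168 (628325 to 628774), 5976 bp from a region of -2.76, and 3.75 on Sc0000652 (44325 to 44587), 1074 bp from a region of -1.72. A region on Sc0000375 (127142 to 127758) had 3.64, beside an early-only region of 1.72. The remaining 2 of the 5, with 3.49 and 3.48, lay on the same side of a sustained region on Sc0000055, at 4466 and 473 bp.

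Some late regions almost touched an early one. The closest, on Sc0000205 (177546 to 177786), lay 29 bp from a sustained region and had -2.17, where the neighbour had -1.68 at 11 hpf. The next 4 had gaps of 139 to 153 bp, and all were negative beside negative regions. They were -1.85 on Sc0000130 (101562 to 102252), -4.20 on Sc0000177 (582629 to 582802), -3.24 on Sc0000010 (4444839 to 4445155) and -2.45 on Sc0000018 (2283430 to 2283691). The early region on Sc0000010 from 4444184 to 4444697, with -4.42 at 11 hpf, therefore had late regions on both sides, one of -6.16 at 1858 bp and one of -3.24 at 141 bp.

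Members whose sign differed from that of their neighbour numbered 223. Their median gap was 3887 bp, against 2569 bp for those that agreed. Of these, 191 were negative beside positive regions, with a median gap of 3838 bp, against 3673 bp for all members beside positive regions. The 32 positive beside negative regions had 4034 bp, against 2559 bp for all members beside negative regions. The pooled difference thus mixes the sign of the neighbour with agreement in sign. The 5 of the 223 with the largest absolute log2 were -5.07 on Sc0000001 (8985061 to 8985437), -4.96 on Sc0000025 (102791 to 103206), 4.72 on Sc0000168, -4.64 on Sc0000010 (1409669 to 1410371) and -4.40 on Sc0000102 (167861 to 168193). Their neighbours had 1.73, 2.65, -2.76, 2.53 and 1.82 at 11 hpf and lay 4618 to 8700 bp away. At short gaps the same reversal of sign occurred, as in 3 regions chosen after their values were seen. On Sc0000345 a late region of -2.52 (196868 to 197109) lay 155 bp from an early-only region of 2.20, on Sc0000113 one of -1.78 (325333 to 325842) lay 231 bp from one of 1.85, and on xpSc0039671 one of -1.60 (596805 to 598456) lay 242 bp from one of 2.20. In these 3 places the positive region was not listed at 19 hpf and the stretch next to it was listed as negative.

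A minority of late regions lay between early ones. An 11 hpf region lay within 10 kb on both sides of 142 members (12.2%, interval 10.4 to 14.3%). Of the 106 members between negative early regions 3 were positive (2.83%, interval 0.588 to 8.05%), of the 21 between positive ones 12 were (57.1%, 34.0 to 78.2%), and of the 15 between early regions of unlike sign 4 were. Over all members beside a nearest positive region the positive share was 29.0%, and its interval of 23.6 to 34.8% met the lower end of that between positive regions. In 24 of the 142 (16.9%) the flanking early regions had consecutive numbers in the 11 hpf set. If the numbers are places in an ordered set of regions, which the sources do not state, that set held no region of its own between them. Of these 24 members, 23 had the sign of the nearest early region.

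The 5 members with the smallest sum of both gaps show this arrangement. On Sc0000008 a late region of -4.36 (4820949 to 4821237) lay between early regions of -4.16, at 382 bp, and -3.86, at 294 bp. On Sc0000333 one of 3.24 (8855 to 9020) lay between early regions of 1.33 and 1.98, and on Sc0000048 one of 2.26 (624629 to 624874) lay between 2.05 and 1.55. On Sc0000177 the region of -4.20 named above lay between -3.06 and -3.64, and on Sc0000016 one of -3.59 (501476 to 502084) lay between -2.48 and -2.44. Each late value was of the sign of both flanks and larger than either in absolute size. The late value was also the larger in 72.1% of all member pairs. The smallest listed absolute value was 1.44 at 19 hpf and 0.98 at 11 hpf. The larger size is therefore not read as a trait of flanked regions. On the scaffolds other than Sc0000016 the flanks had consecutive numbers.

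Beside sustained regions, the region numbers of the 19 hpf list, read as places in an ordered set, show what lay between. Of the 635 members with a sustained neighbour, 369 (58.1%) were the very next numbered region to the 19 hpf region over that neighbour, 163 had 1 numbered region between and 103 had 2 or more, up to 5. In 184 of the 635 (29.0%) at least 1 of the regions between was not listed, so the listed regions were not all adjacent there. The sign matched that of the sustained region at 19 hpf in 96.5% of the 369, 92.0% of the 163 and 86.4% of the 103. These shares pool both signs and were not split by the sign of the neighbour. Since 573 of the 635 had a negative neighbour, they depend on that make-up, and no trend is read from them. Beside positive sustained neighbours only 30 of 62 members were positive. Members were close in size to the sustained region, with medians of the absolute log2 at 19 hpf of 2.60 and 2.75, and the member had the larger value in 301 pairs (47.4%). Over all members, 667 (57.5%) had a listed region at the next number, and for 411 members (35.4%) such a region was one over an 11 hpf region. The membership rule itself asks for an early region nearby, so this share is not compared with that of the other 19 hpf regions.

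When listed regions of both times were linked across gaps of at most 10 kb, the 1161 members fell into 816 loci. A single member stood in 588 of them, 154 held 2, and 74 held 3 or more, which together took in 265 members. The median locus spanned 7412.5 bp (quartiles 3901.5 to 11727.8 bp). At least 1 region listed at both times was present in 498 loci (61.0%), and the other 318 held none. Of the 228 loci with 2 or more members, 208 (91.2%) had members of a single sign, 196 of them negative and 12 positive. In the whole 19 hpf list 90.6% of regions were negative, so that most such loci would be all negative from the make-up of the list alone, and no coherence within loci is read from this count. Every listed region of either time had the same sign in 615 of the 816 loci (75.4%), which depends on that make-up as well.

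The locus on Sc0000019 from 2337883 to 2367946 had the most members together with that on Sc0000055, 8 each. Its 11 hpf regions were few, with -1.35 and -2.20, and the second was sustained with -3.05 at 19 hpf. Around them all 8 members were negative, from the first at -2.40 through -2.60, -2.93, -5.59, -4.26, -3.99 and -1.89 to the last at -3.45. The most negative lay directly beside the sustained region, and 4 of the 8 exceeded an absolute log2 of 3. At this place a pair of early regions was thus followed by 9 listed regions among 13 consecutive numbers at 19 hpf.

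The locus on Sc0000055 from 1172134 to 1219986 changed sign along its length. Its 11 hpf regions were both positive, with 1.36 at 1191620 to 1192230, listed at 11 hpf only, and 2.42 at 1206683 to 1207149, sustained with 2.25. From the left, late regions of -2.21 and -3.67, farther than 10 kb from an early region, were followed by members of -3.35, -2.36, -1.50 and -1.65 on both sides of the early-only region. Then came members of 2.17, 3.48, 3.49 and 2.06 around the sustained one and a farther late region of 2.53. The negative and the positive late regions formed separate blocks along the locus. By position, the negative block spanned the early-only region and the positive block the sustained one. The negative member of -1.65 nevertheless had the sustained region as its nearest, so the blocks did not follow the nearest early region throughout.

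Among the other loci with the most members, that on Sc0000033 (340142 to 361219) had no region listed at both times. Its early regions had -2.11 and -2.23, and its 6 members were -2.29, -1.92, -2.12, -3.24, -3.25 and -2.20, so the early regions left the list and their surroundings entered it with the same sign. On Sc0000014 (544595 to 577822), 5 early regions from -2.14 to -1.40 and 3 late regions over them stood among 6 negative members from -3.32 to -1.71. On Sc0000000 (8725907 to 8774393) early regions outnumbered members, with 11 early regions, 8 overlapping late regions and 5 members from -3.48 to -1.84, which filled spaces between early regions and lay at both ends of the locus. On Sc0000022 (1245764 to 1260593) 5 negative members from -3.13 to -1.66 stood with 2 sustained regions. On Sc0000258 (364837 to 380445) the single early region had -2.96, was sustained with -3.11, and was followed by members of -2.89, -2.58, -4.31 and -2.21 on one side and -1.88 on the other, with all 7 numbered late regions of the locus listed. On Sc0000088 (805407 to 830631) 4 members were negative, from -3.50 to -1.62, and 1 at the edge was positive with 2.69, although the 3 early regions were all negative.

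**Figure D5:**
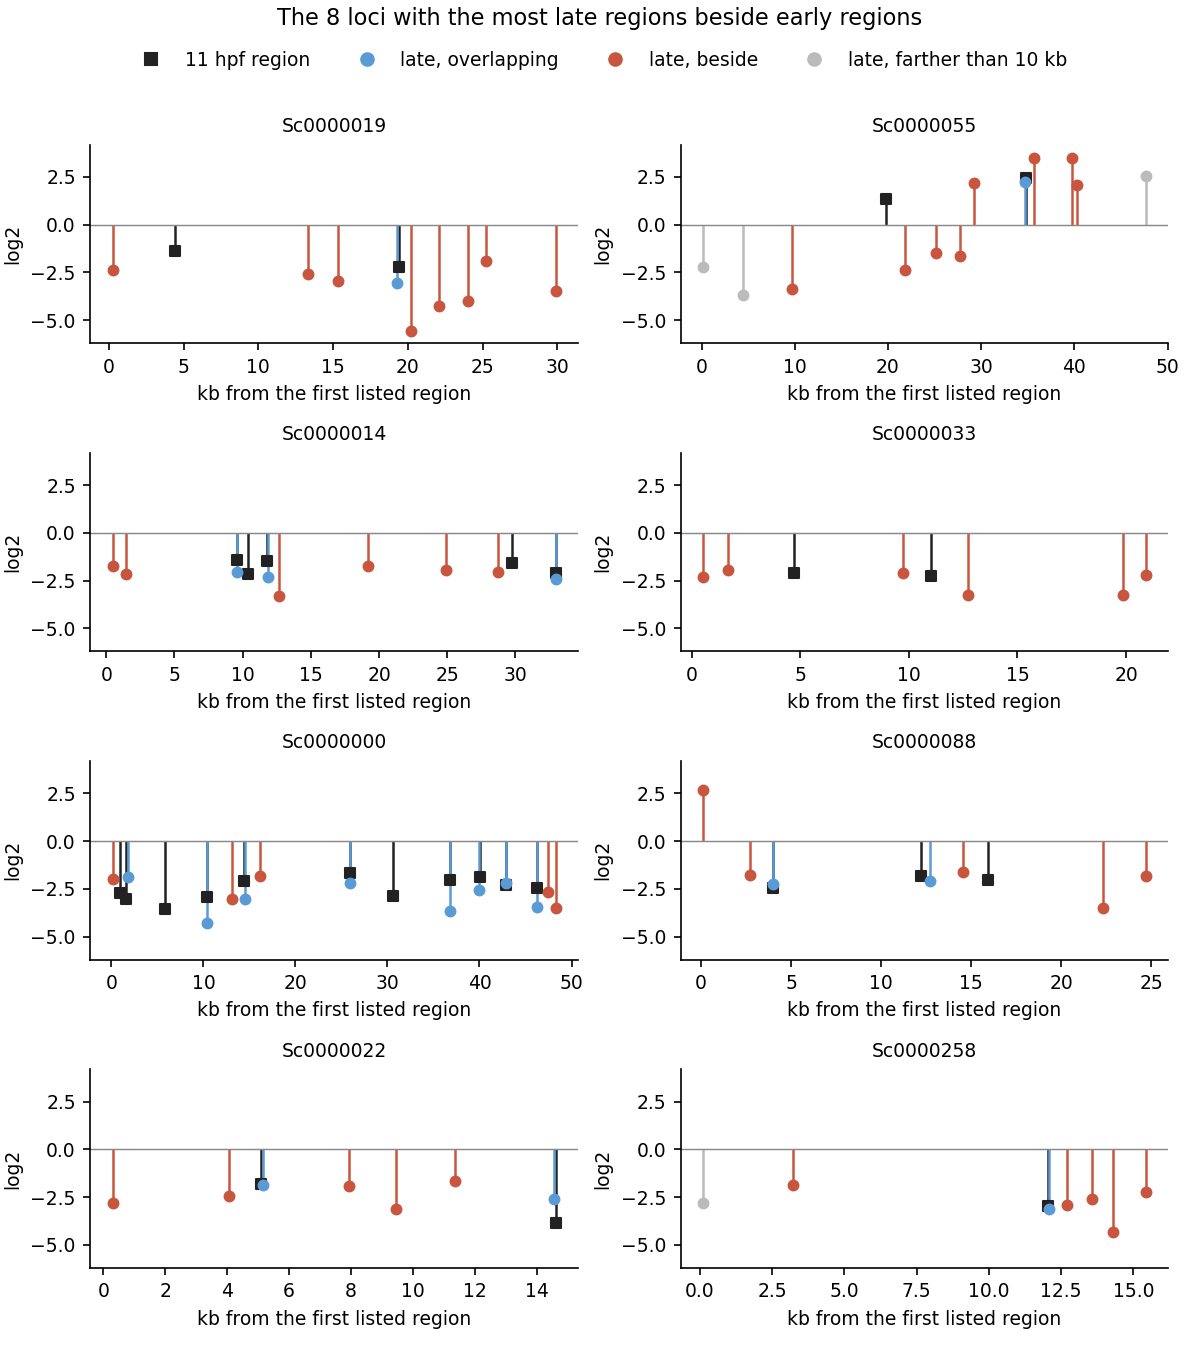
The authors' log2 values (vertical axes) along the 8 loci with the most members, by distance in kb from the first listed region of each locus (horizontal axes), with 1 stem per region. Black squares are 11 hpf regions, blue points late regions over them, red points late regions beside them and grey points late regions farther than 10 kb from any. Stems point down in 6 of the 8 loci, while Sc0000055 passes from negative to positive and Sc0000088 has 1 positive region at its edge.

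Members were spread over the assembly. The scaffold with the most, Sc0000001, held 40 (3.45%), followed by Sc0000003 with 34 and Sc0000000 with 30, and these scaffolds also had many regions in both lists. Positive members were on 68 of the 294 scaffolds. Sc0000000 and Sc0000055 held 5 positive members each, of 30 and 17 members, and on Sc0000089 4 of 5 members were positive.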

How the data were processed

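ATAC-seq was made from amphioxus ectodermal explants in 8 libraries. The signed log2 values are the authors', deposited as 1 list of differential regions per time point. The tools BWA and DESeq2 are named, without versions, per the submitters' processing notes. Not given in the sources used here: build, peak caller, threshold, pooling. Log scale was read from the values (none is 0), base 2 from that tool's usual output. Depth is unknown, so no interval from reads is given.

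Overlaps, gaps and loci were computed with Python 3.11.15, pandas 2.3.3, numpy 2.4.6 and scipy 1.17.1, and checked on lists with planted gaps. Ties in gap went to the larger absolute log2. Regions named were, by rule, the 5 largest per sign, the 5 closest, the 5 on each side of 10 kb, the 5 largest of other sign than their neighbour, the 5 most tightly flanked and the 8 loci with most members. Members, lists and rules were chosen with earlier results of these data known. No test between libraries or over regions was made. Alternatives were other gaps, overlap of 50%, an absolute log2 of 2, merged regions, long scaffolds and other choices of neighbour. Gene names, motifs and sequences were not analysed here.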

Additional observations from a re-analysis of the deposited data

How the results depend on the processing

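Of 51 values recomputed under alternatives, 35 stayed within the counting interval of the main value, or within 1.5 times for the number of members, and 16 moved beyond it. None changed which sign prevailed. When both lists were limited to an absolute log2 of 2 or more there were 728 members, 6.32% of them positive, with a median absolute log2 of 2.62, 89.3% agreement in sign, 58.8% beside sustained regions, 8.52% with early regions on both sides and 1.76% positive beside negative regions. That threshold removes the weaker regions by construction. Sign agreement was 83.1% with gaps of at most 5000 bp, 77.4% with 20000 bp, 84.4% when only overlap of 50% of both lengths counted as shared, and 83.2% on scaffolds of at least 1 Mb. On those scaffolds 2.44% were positive beside negative regions. At 5000 bp 9.36% had early regions on both sides. At 20000 bp 51.3% were beside sustained regions and 23.0% were positive beside positive ones. With the overlap of 50%, 35.3% were beside sustained regions, a term the same rule narrows. Positive shares split by the early sign were added after the data were seen. No paired analysis was possible because the lists hold no values per library, and for that reason no library could be left out. Depth is unknown, and regions just under the authors' threshold are not in the lists, so a region listed at 1 time is not shown to be unchanged at the other.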
